A study of Arabidopsis thaliana with 24 samples.

Results

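The effect of adding estradiol (EST) and the cytokinin BAP together for 24 h was measured in Arabidopsis roots, in 3 EST + BAP libraries set against 3 DMSO libraries. The sample labels gave the treatment and the time of these 6 libraries, out of 24 in the series. All plants were homozygous for pANT:XVE>>axr3-1-YFP and were 9 d old. In this line the promoter of ANT, a transcription factor gene of the cambium, drives XVE, an estradiol-activated transcription factor, and XVE transcribes axr3-1 fused to YFP. EST + BAP plants received 5 µM EST with 1 µM BAP (6-benzylaminopurine, a synthetic cytokinin). DMSO plants received the solvent and carried the same transgene, not induced. Plants given 1 µM BAP alone or 5 µM EST alone for 24 h, 3 libraries each, served as further comparisons, and EST + BAP and DMSO plants harvested at 4 h gave the earlier time. Each library held pooled main root segments of 1.5 cm, cut between 0.5 and 2 cm below the junction of root and hypocotyl. The transgene came from 1 line, and the study saw its YFP mainly in the cambium, with a few positive cells in phloem and periderm, whereas the segments held every tissue of the root. The study's methods describe 3 repeats of the experiment per time point, without saying which library number is which repeat, and p-values measure only the spread between these libraries.

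Cytokinin binds AHK receptor kinases, which pass phosphate through AHP proteins to type-B ARR transcription factors. These switch on the type-A ARR genes, whose products dampen the pathway, and CKX genes, whose products break cytokinin down. Auxin works by the removal of Aux/IAA repressors, which frees ARF transcription factors, and axr3-1 is a stabilised Aux/IAA that keeps ARFs repressed. Both hormones act in the vascular cambium, the ring of dividing cells between xylem and phloem that thickens the root.

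The nuclear genes held between 18796609 and 35364183 counts in EST + BAP libraries and between 6001669 and 23453012 in DMSO libraries. Ribosomal RNA took 6.31 to 16.1% of the counts in EST + BAP libraries and 3.94 to 54.1% in DMSO libraries, where replicate 1 had the highest share and the lowest nuclear total. In pairwise chi-square tests, the pairs with EST + BAP replicate 2 gave 45.3 and 34.2 per degree of freedom. The pair of replicates 1 and 3 gave 7.38, and DMSO pairs gave 8.81 to 12.9. This statistic grows with depth, and replicate 2 was the deepest EST + BAP library, with 35364183 nuclear counts. It does not separate depth from a difference of replicate 2. Because of these values, the counts of genes below were also computed without each library. A level is given in CPM, the count per 1000000 counts of the scaled library, a scale that does not correct for gene length, so levels are compared within a gene only. In these whole-segment samples, fewer cells of a type and less RNA per cell cannot be told apart.

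In a principal component analysis of the 12 libraries of 24 h over 21734 genes, the EST + BAP libraries lay apart from each of the other groups. The first component, with 56.6% of the variance, put EST + BAP libraries at −18.19 to −15.99, BAP libraries at −84.84 to −77.29, EST libraries at 73.26 to 75.89 and DMSO libraries at 15.11 to 29.1. The second, with 19.4%, put EST + BAP libraries at −47.72 to −42.42, BAP libraries at 8.52 to 12.85, EST libraries at −15.1 to −11.93 and DMSO libraries at 41.57 to 51.98. Thus EST + BAP libraries lay between BAP and EST libraries on the first component and below both on the second.

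**Figure D1:**
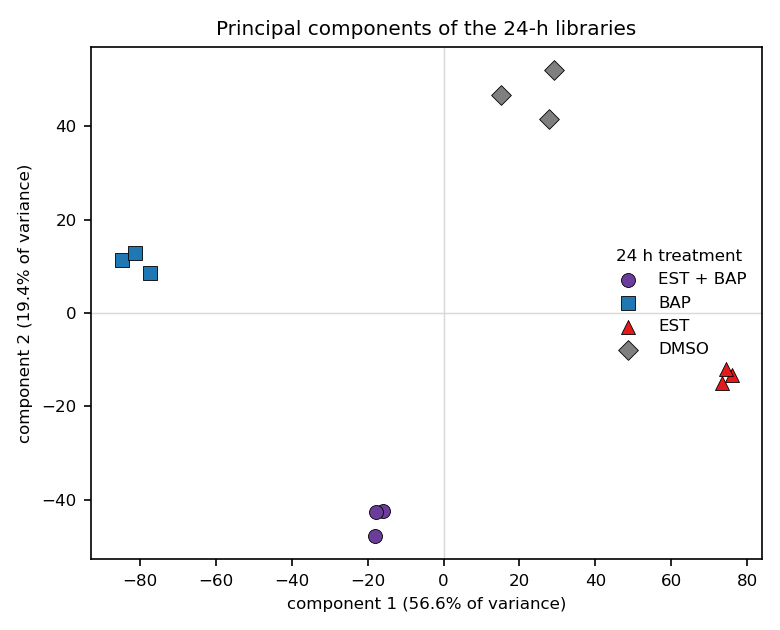
Principal components 1 (x axis, 56.6% of the variance) and 2 (y axis, 19.4%) of log2 CPM over 21734 genes, with 1 point per 24-h library. The 3 EST + BAP libraries lie at −47.72 to −42.42 on component 2, opposite the DMSO libraries at 41.57 to 51.98, and between the BAP and EST libraries on component 1.

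A gene was called when its log2 fold change was at least 0.5 in either direction and its p in edgeR's quasi-likelihood test, adjusted by the Benjamini-Hochberg method, was no more than 0.05. Of 21076 genes tested, 2200 were higher in EST + BAP (10.4%) and 2111 were lower (10%). The groups did not overlap in 4229 of the 4311 called genes, which the call itself favours. This count was not made over all genes tested. The change was at least 2-fold in 987 higher and 824 lower called genes. The median log2 fold change of all genes tested was −0.01, and that of its absolute value was 0.24. Against BAP alone, 2447 of 21081 genes were higher (11.6%) and 2480 were lower (11.8%). Against EST alone, 3544 of 21490 genes were higher (16.5%) and 2974 were lower (13.8%). Counts of list members below are to be read beside the shares of the same comparison. Comparisons with DMSO share the same DMSO libraries, and the single-treatment log2 fold changes below are given side by side as values.

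AXR3 (AT1G04250, TAIR10.1 chromosome 1, 1136078 to 1138663, + strand), the gene whose mutant form the transgene carries, had 159, 140 and 130 CPM in EST + BAP, against 66.4, 66.7 and 73.8 CPM in DMSO. All 3 EST + BAP libraries lay above all 3 DMSO libraries (log2 fold change 1.05, SE 0.10, adjusted p = 5.79e-05, edgeR). BAP libraries, in which the transgene was not induced, were higher still, with 205, 189 and 198 CPM, and EST libraries had 84.9, 77.8 and 80.9 CPM. The counts do not separate the transgene from the endogenous gene, so the level does not check the induction. AXR3 was 0.46 lower on the log2 scale than with BAP alone (SE 0.09, adjusted p = 0.00341, edgeR), which did not reach the cutoff on size. At 4 h, on the CPM scale of all libraries, AXR3 had 258, 279 and 314 CPM in EST + BAP and 50.8, 47.5 and 48.4 CPM in DMSO. At that time EST libraries had 131, 167 and 176 CPM and BAP libraries 163, 155 and 177 CPM. The effect of EST + BAP on AXR3 was 1.46 lower on the log2 scale in the 24-h set than in the 4-h set (SE 0.14, adjusted p = 0.000234, edgeR).

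ANT (AT4G37750, chromosome 4, 17739514 to 17742407, + strand), whose promoter drives the inducer, had 83.0, 90.8 and 85.1 CPM in EST + BAP and 95.2, 88.1 and 120 CPM in DMSO. These ranges overlapped, and the log2 fold change of −0.23 did not pass the test (SE 0.12, adjusted p = 0.167, edgeR). BAP libraries had 190, 223 and 229 CPM and EST libraries 12.4, 20.2 and 18.4 CPM, so that EST + BAP lay far from both.

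**Figure D2:**
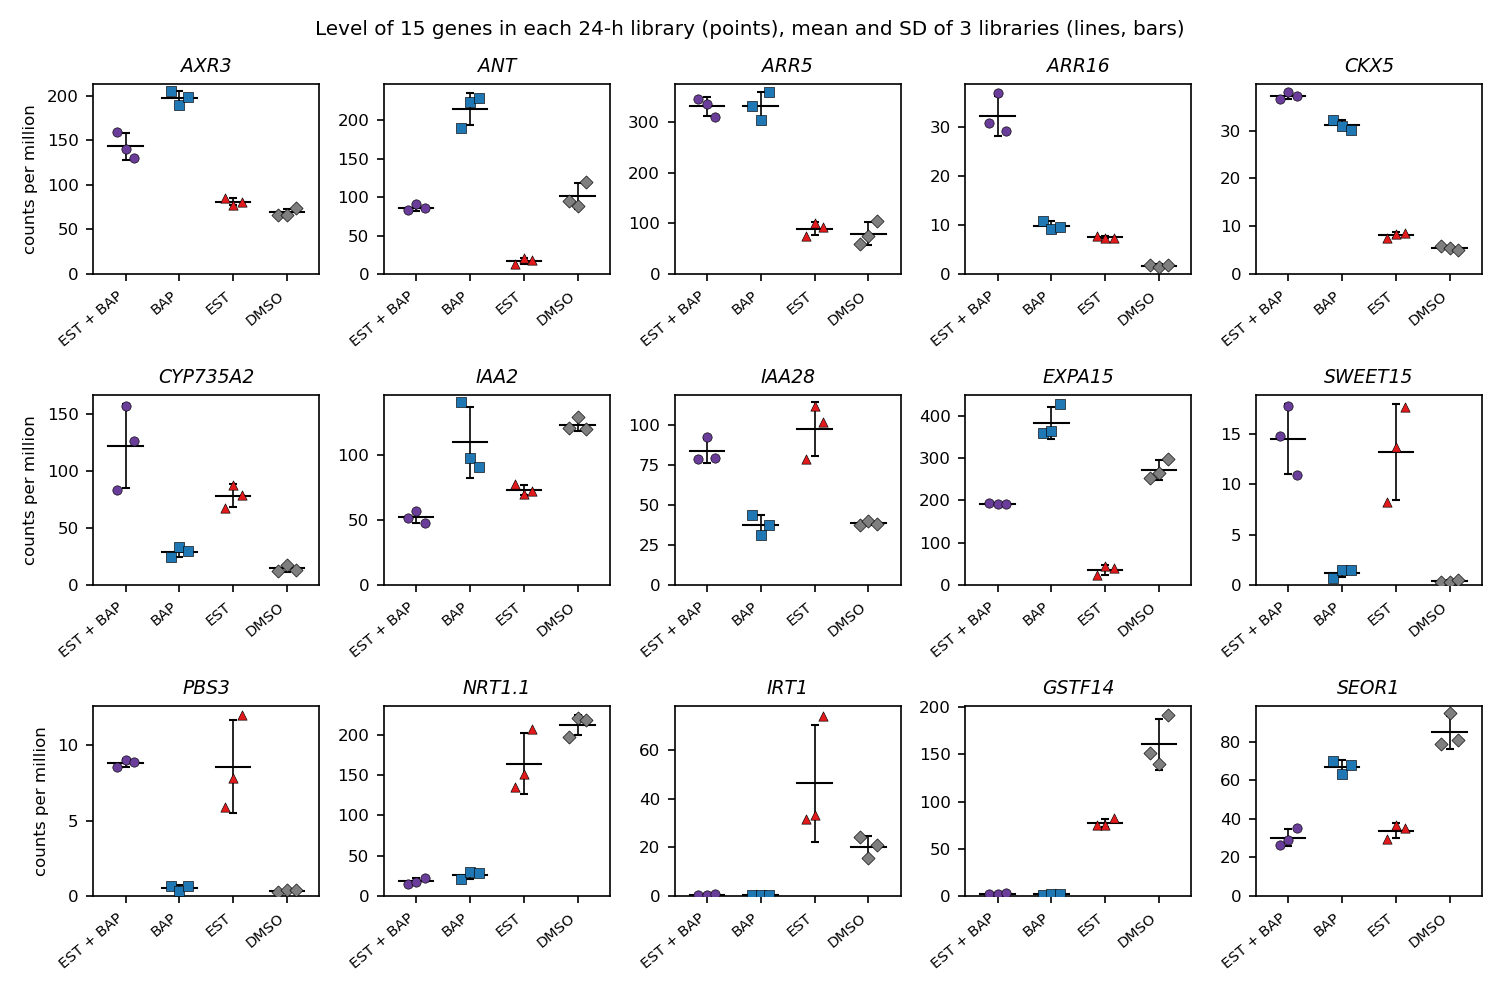
Level of 15 genes (y axes, CPM from 0) in each 24-h library, in the order EST + BAP, BAP, EST and DMSO, with 1 point per library, a line at the mean and bars of 1 SD (n = 3). AXR3 is at 130 to 159 CPM in EST + BAP and 66.4 to 73.8 CPM in DMSO, and ANT at 83.0 to 90.8 CPM in EST + BAP and 88.1 to 120 CPM in DMSO.

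Type-A ARR genes, the early response genes of cytokinin, were higher in EST + BAP in 7 of the 9 members tested, with a median log2 fold change of 1.23, beside −0.01 for all genes. ARR5 (chromosome 3, 17758427 to 17760950, − strand) had 346, 336 and 311 CPM in EST + BAP, against 59.3, 74.9 and 105 CPM in DMSO. No library of one group reached the other group (log2 fold change 2.04, SE 0.18, adjusted p = 4.35e-05). BAP alone changed ARR5 by the same 2.04 and EST alone by 0.15. ARR6 gained 1.23 (SE 0.18, adjusted p = 0.000718), and ARR3, ARR4 and ARR7 gained 1.59, 1.01 and 0.79. ARR8 and ARR9 did not pass the test. ARR9 had a log2 fold change of 0.10 and ARR8 one of −0.55 (adjusted p = 0.117). Whether the counts of ARR8 hold reads of another RNA was not tested.

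ARR16 (chromosome 2, 16969673 to 16972113, + strand) differed from ARR5 in its values under the single treatments. It had 31, 37.0 and 29.2 CPM in EST + BAP, against 1.84, 1.41 and 1.89 CPM in DMSO, with 10.9, 9.15 and 9.68 CPM in BAP and 7.83, 7.43 and 7.36 CPM in EST. Every EST + BAP library lay above every library of the other groups. The log2 fold change was 4.28 against DMSO (SE 0.15, adjusted p = 5.41e-07), 1.72 against BAP (SE 0.11, adjusted p = 2.73e-05) and 2.11 against EST (SE 0.10, adjusted p = 2.81e-06), all by edgeR. ARR15 gave another order, with 4.59, 4.23 and 3.1 CPM in EST + BAP, 12.3, 14.2 and 13.8 CPM in BAP and 1.18, 1.17 and 1.46 CPM in DMSO. It was higher than in DMSO by 1.62 (SE 0.22, adjusted p = 0.000453) and lower than with BAP alone (log2 fold change −1.75, SE 0.14, adjusted p = 7.04e-05). The letters AGATAC, a motif of type-B ARR factors, stood on either strand in 2 of 10 type-A ARR promoters (20%), from 250 bases before to 50 after the start, against 11.5% of all promoters, and in 0 of the 7 called members.

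Of 14 receptors, AHPs and type-B ARRs tested, 2 were higher and 2 lower, beside shares of 10.4% higher and 10% lower over all genes. The receptor gene AHK4 had 132, 136 and 137 CPM in EST + BAP and 77.8, 85.0 and 88.8 CPM in DMSO (log2 fold change 0.68, SE 0.08, adjusted p = 0.000251), and AHP3, a phosphotransfer protein gene, gained 0.53. ARR11, a type-B regulator, had 8.88, 8.44 and 8.98 CPM in EST + BAP and 22.6, 24.3 and 18.3 CPM in DMSO (log2 fold change −1.31, SE 0.12, adjusted p = 4.31e-05). ARR2 fell by 0.70, and AHK3, ARR1 and ARR10 did not pass.

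Genes that remove cytokinin were higher in 5 of 10 members tested and lower in 1, beside 10.4% and 10% of all genes. Their median was 0.83. Without DMSO replicate 2 the count was 6 higher and 0 lower. CKX5, a cytokinin oxidase (chromosome 1, 28314458 to 28318375, − strand), had 36.6, 38.0 and 37.2 CPM in EST + BAP, against 5.77, 5.44 and 5.12 CPM in DMSO. The libraries of each group lay close together (log2 fold change 2.79, SE 0.09, adjusted p = 3.47e-07), with 2.52 for BAP alone and 0.59 for EST alone. CKX3 and CKX4 gained 3.23 and 1.64, and UGT76C2, which adds glucose to cytokinins, gained 0.99.

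Cytokinin synthesis genes were split, with 4 of 14 higher and 4 lower, beside 10.4% and 10% of all genes. CYP735A2, which makes trans-zeatin-type cytokinin, had 83.8, 157 and 126 CPM in EST + BAP, against 12.7, 17.9 and 13 CPM in DMSO, and replicate 2 was the highest EST + BAP library. Its log2 fold change was 3.05 (SE 0.23, adjusted p = 1.74e-05), beside 0.97 for BAP alone and 2.4 for EST alone. Of the IPT genes, which encode the entry enzymes of the pathway, IPT5 had 1.87, 2.64 and 1.78 CPM in EST + BAP and 11, 12.5 and 8.93 CPM in DMSO (log2 fold change −2.33, SE 0.19, adjusted p = 2.65e-05). IPT7 fell by 1.76 (adjusted p = 0.00245), with −4.41 for BAP alone. IPT3, with −2.95 for BAP alone and 1.29 for EST alone, had −0.35 in EST + BAP and did not pass. IPT1 went the other way at a low level, and its groups did not overlap. On the CPM scale of all libraries it had 0.824, 0.798 and 0.962 CPM in EST + BAP and 0, 0.106 and 0.122 CPM in DMSO.

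Aux/IAA genes, leaving out AXR3, were lower in EST + BAP in 8 of 22 members tested and higher in 1, with a median of −0.41. The median was 0.10 for BAP alone and −0.64 for EST alone. IAA2 (chromosome 3, 8180646 to 8182095, − strand) had 51.7, 56.8 and 47.7 CPM in EST + BAP, against 121, 129 and 120 CPM in DMSO, and all EST + BAP libraries were below all others of 24 h. It fell by 1.24 (SE 0.09, adjusted p = 1.21e-05), with −0.18 for BAP alone and −0.75 for EST alone. IAA16 fell by 1.45 and IAA9 by 0.73. IAA28 (chromosome 5, 9033204 to 9035140, + strand) went the other way, with 79.3, 93.0 and 79.8 CPM in EST + BAP and 37.9, 40.2 and 38.5 CPM in DMSO. Its log2 fold change was 1.11 (SE 0.09, adjusted p = 2.28e-05), with 1.32 for EST alone and −0.06 for BAP alone. SHY2 had −0.49 and missed the size cutoff, but passed it with libraries thinned to equal totals and without DMSO replicate 1, EST + BAP replicate 1 or EST + BAP replicate 2. The letters TGTCTC, the auxin response element, stood on either strand in 12 of 28 Aux/IAA promoters (42.9%), from 250 bases before to 50 after the start, against 14.2% of all promoters, and in 2 of the 9 called members. Compared with BAP alone, 15 of 23 Aux/IAA genes were lower in EST + BAP and 1 was higher, beside 11.8% and 11.6% of all genes.

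Auxin-induced GH3 and LBD genes were lower in 4 of 8 members tested. LBD16, a lateral root regulator, fell by 3.02, and GH3.2 and GH3.3, which conjugate auxin to amino acids, fell by 1.66 and 1.41. GH3.5 fell by 0.54, a call that was lost without DMSO replicate 2, EST + BAP replicate 2 or EST + BAP replicate 3. Auxin transport genes were lower in 5 of 13 and higher in 1, beside 10% and 10.4% of all genes. PIN7, an auxin efflux carrier, had 30.2, 33.1 and 34.4 CPM in EST + BAP, against 57.8, 56.6 and 50.3 CPM in DMSO. The groups were clear of each other (log2 fold change −0.75, SE 0.09, adjusted p = 0.0002), with 0.24 for BAP alone and −1.24 for EST alone. PIN3 and PIN4 fell by 0.84 and 0.65. PID, a kinase that directs PIN placement, had 11, 12.9 and 11 CPM in EST + BAP and 3.93, 4.53 and 5.31 CPM in DMSO (log2 fold change 1.31, SE 0.13, adjusted p = 9.27e-05).

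Of 18 genes of auxin synthesis, auxin receptors and activating ARFs, 6 were higher and 2 lower, beside 10.4% and 10% of all genes. Their median was 0.04. ARF5, the activator also called MONOPTEROS, had 67.8, 74.5 and 67.3 CPM in EST + BAP, against 32.4, 39.2 and 36.3 CPM in DMSO. It was higher in every EST + BAP library (log2 fold change 0.95, SE 0.09, adjusted p = 6.92e-05), with 0.89 for BAP alone and −0.49 for EST alone. YUC8, an auxin synthesis gene, gained 1.81, whereas YUC5 and TAR2, of the same pathway, fell by 0.93 and 1.64. With libraries thinned to equal totals, 3 genes of this list were higher and 2 lower.

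The TDIF-PXY pathway, in which peptides from CLE41 and CLE44 act on the receptor PXY and on WOX4 to keep cambium cells dividing, gave no call in 8 genes tested by edgeR, and none by DESeq2, with a median of −0.21. At an unadjusted p under 0.05, 2 of the 8 were lower. CLE41 had a log2 fold change of −0.37 (adjusted p = 0.0486) and CLE44 one of −0.43 (adjusted p = 0.014), both under the size cutoff. CLE44 reached it without DMSO replicate 2. PXY had −0.10 and WOX4 −0.12. The median of the list was 0.09 for BAP alone and −0.64 for EST alone. In EST + BAP, 3 of its genes were higher than with EST alone, beside 16.5% of all genes.

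Cambium regulators were called in both directions, with 8 of 28 higher and 4 lower, beside 10.4% and 10% of all genes. LBD1 (chromosome 1, 2442570 to 2443746, + strand), a LOB-domain transcription factor gene, had 4.14, 5.34 and 4.55 CPM in EST + BAP, against 0.656, 0.638 and 0.77 CPM in DMSO. It was above BAP (1.18, 1.55 and 1.37 CPM) and EST (3.31, 2.95 and 3.2 CPM) in each library. The log2 fold change against DMSO was 2.75 (SE 0.21, adjusted p = 1.65e-05). ERF072, an ERF transcription factor gene, had 238, 233 and 213 CPM in EST + BAP and 60.2, 84.8 and 73.6 CPM in DMSO (log2 fold change 1.64, SE 0.13, adjusted p = 1.86e-05). AIL6 and AIL7, relatives of ANT, gained 0.90 and 1.68, and LBD3, PTL, SMXL5 and HCA2 gained between 0.64 and 0.80. KNAT1, PHB and TINY2 fell by 0.58, 0.81 and 0.64, and PEAR1, a mobile DOF regulator of the phloem side, fell by 0.98. LBD4 had −0.50 and was called only without DMSO replicate 1. SVP, ATHB5, DOF1.6 and DOF3.4, named in the study, were not called. On the CPM scale of all libraries, SVP had 24.0 to 26.7 CPM in EST + BAP and 22.3 to 25.9 CPM in DMSO. DOF1.6 had 6.36 to 8.63 CPM in EST + BAP and 8.82 to 11.5 CPM in DMSO.

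Cell cycle genes were higher with EST + BAP. In the mitotic list 18 of 27 members were higher, with a median of 0.71, and in the DNA replication list 10 of 13, with a median of 0.56. The mitotic count lay between 15 and 21 when each library was left out, and the replication count was 6 without DMSO replicate 2. CYCB1;3, a B-type cyclin, had 10.8, 9.09 and 10.4 CPM in EST + BAP, against 5.38, 4.93 and 4.97 CPM in DMSO. All EST + BAP libraries lay above all DMSO libraries (log2 fold change 1.00, SE 0.12, adjusted p = 0.000208), with 1.82 for BAP alone and −0.13 for EST alone. CYCB2;3 had 15, 14.3 and 14.9 CPM in EST + BAP and 9.05, 5.94 and 6.47 CPM in DMSO (log2 fold change 1.11, SE 0.14, adjusted p = 0.000276). HINKEL, a kinesin of cytokinesis, gained 0.85 and CYCB2;1 gained 1.49. Among replication genes, FAS1, a subunit of chromatin assembly factor, had 20.6, 21.3 and 21.3 CPM in EST + BAP and 14.2, 12.3 and 13.7 CPM in DMSO (log2 fold change 0.66, SE 0.08, adjusted p = 0.000356). RNR1 and TSO2, of ribonucleotide reductase, gained 0.70 and 0.92, and the sliding clamp gene PCNA1 gained 0.62.

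These gains were smaller than those with BAP alone. For the mitotic list the medians were 1.64 for BAP alone and −0.71 for EST alone, and in the direct comparisons 23 of 27 genes were lower in EST + BAP than in BAP and all 27 were higher than in EST. For the replication list the medians were 1.12 for BAP alone and −1.16 for EST alone, with 7 of 13 lower than in BAP and 13 higher than in EST. Over all genes, 11.8% were lower than in BAP and 16.5% higher than in EST. Of 9 D-type cyclins, which start the cycle, 1 was higher, CYCD1;1 (0.75), beside 10.4% of all genes. CYCD3;1 had 0.39 (adjusted p = 0.0436, edgeR) and missed the size cutoff. CDK inhibitors, which brake the cycle, were higher in 3 of 9 members tested and lower in 1, beside 10.4% and 10% of all genes. KRP2, KRP1 and KRP5 gained 1.05, 0.84 and 0.63, and SIM fell by 0.76.

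The letters AACGG, the core of the element that MYB3R factors bind in mitotic genes, stood on either strand in 18 of 27 mitotic promoters (66.7%), from 250 bases before to 50 after the annotated start. They stood in 24.6% of 27345 promoters of the same length. The 200 bases before the start of both cyclin genes are printed because they hold this core 3 times each, in capitals, on the forward strand as AACGG or on the reverse as CCGTT. They lie at chr3:3627274-3627473 (− strand) and chr1:7137829-7138028 (− strand) of TAIR10.1, and are written 5′ to 3′ on the strand of the gene.
CYCB1;3: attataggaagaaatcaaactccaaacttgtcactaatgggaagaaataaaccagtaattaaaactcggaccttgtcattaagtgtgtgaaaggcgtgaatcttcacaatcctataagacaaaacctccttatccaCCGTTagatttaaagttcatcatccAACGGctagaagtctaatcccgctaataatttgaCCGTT
CYCB2;3: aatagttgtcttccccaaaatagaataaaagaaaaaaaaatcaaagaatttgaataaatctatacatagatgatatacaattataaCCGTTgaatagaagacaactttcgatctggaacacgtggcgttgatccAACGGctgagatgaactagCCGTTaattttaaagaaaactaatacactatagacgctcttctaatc

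Ribosome biogenesis genes were higher in 12 of 25 members, with a median of 0.49, and another 12 lay above 0 at an unadjusted p under 0.05. The count was 12 or 13 in each set with a library left out. NOP5-1, a protein of the box C/D particles that modify ribosomal RNA, had 63.2, 65.0 and 62.9 CPM in EST + BAP, against 34.5, 32.5 and 34.6 CPM in DMSO. The groups were far apart for their spread (log2 fold change 0.91, SE 0.07, adjusted p = 2.16e-05), with 1.73 for BAP alone and −0.48 for EST alone. NOP56, of the same particles, had 99.8, 90.1 and 94.4 CPM in EST + BAP and 51.8, 48.3 and 56.0 CPM in DMSO (log2 fold change 0.86, SE 0.09, adjusted p = 7.48e-05). NHP2 and NOP5-2 gained 0.64 and 0.60. The list's median was 1.13 for BAP alone and −0.33 for EST alone, with 21 genes lower in EST + BAP than in BAP and 24 higher than in EST. Over all genes these shares were 11.8% and 16.5%.

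The telo box, AAACCCTA, an element known from promoters of ribosomal and translation genes, stood on either strand in 16 of 25 promoters of the list (64.0%) and in 6.22% of all promoters of that length. The 200 bases before the starts of NOP5-1 (chr5:9540661-9540860, + strand) and NOP56 (chr1:20986953-20987152, − strand) are shown with the box in capitals, 36 and 9 bases before the annotated start.
NOP5-1: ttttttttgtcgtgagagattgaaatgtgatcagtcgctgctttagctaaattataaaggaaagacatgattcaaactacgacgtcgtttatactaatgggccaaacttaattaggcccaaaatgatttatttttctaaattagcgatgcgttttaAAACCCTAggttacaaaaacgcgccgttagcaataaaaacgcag
NOP56: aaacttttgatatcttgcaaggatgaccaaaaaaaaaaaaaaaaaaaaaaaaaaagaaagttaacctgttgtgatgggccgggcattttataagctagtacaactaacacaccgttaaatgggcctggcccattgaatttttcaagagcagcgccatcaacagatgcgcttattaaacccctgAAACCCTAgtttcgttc

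Alpha-expansins loosen cell walls during growth, and 5 of 13 tested were higher in EST + BAP, with a median of 0.31. This count depended on single libraries: 5 were higher and 3 lower without DMSO replicate 1, 4 and 1 without DMSO replicate 2, 3 and 0 without DMSO replicate 3, and 3 and 2 without EST + BAP replicate 1. EXPA1 had 185, 168 and 172 CPM in EST + BAP, against 75.9, 66 and 56.7 CPM in DMSO, with the groups well apart (log2 fold change 1.41, SE 0.11, adjusted p = 2.12e-05). EXPA8 and EXPA17 gained 1.69 and 1.07. EXPA15 (chromosome 2, 916806 to 918671, − strand) had 194, 191 and 192 CPM in EST + BAP, 360, 365 and 428 CPM in BAP, 22.9, 45.3 and 40.1 CPM in EST and 252, 264 and 298 CPM in DMSO. Its EST + BAP libraries thus lay just under DMSO and far above EST. The log2 fold change against DMSO was −0.50 (SE 0.09, adjusted p = 0.00316), which missed the cutoff, and passed it by DESeq2 and without DMSO replicate 1, DMSO replicate 2 or EST + BAP replicate 1.

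**Figure D3:**
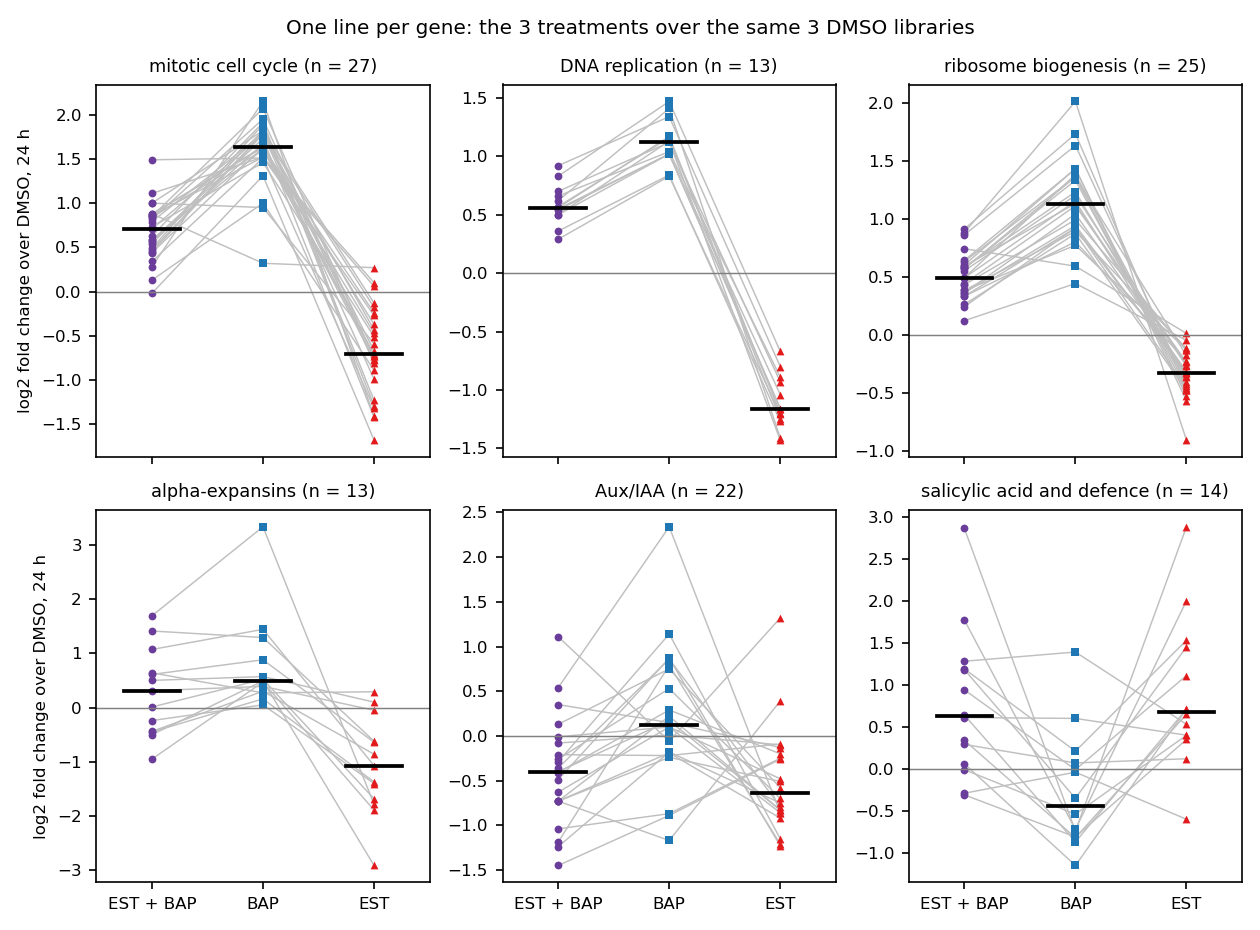
Log2 fold change of each tested member of 6 gene lists in EST + BAP, BAP and EST against the same DMSO libraries, with 1 point per gene, grey lines joining the points of a gene and a black bar at the median. In the mitotic list (27 genes) the medians are 0.71 for EST + BAP, 1.64 for BAP and −0.71 for EST, and in the ribosome biogenesis list (25 genes) 0.49, 1.13 and −0.33.

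Phloem genes were lower in 10 of 19 members and higher in 1, with a median of −0.61, beside −0.27 for BAP alone and −0.49 for EST alone. SEOR1 (chromosome 3, 251868 to 255513, + strand), a filament protein of sieve elements, had 26.4, 29.0 and 35.3 CPM in EST + BAP, against 78.8, 94.7 and 80.9 CPM in DMSO. It was lower in each EST + BAP library (log2 fold change −1.49, SE 0.12, adjusted p = 2.36e-05). SEOA, its partner, fell by 1.50, and APL and SMXL4, regulators of phloem identity, fell by 1.12 and 1.07. SUC2, the sucrose loader of companion cells, gained 0.59, a call that was lost without DMSO replicate 3 (0 higher, 10 lower), and 2 were higher and 9 lower without DMSO replicate 2.

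Of 25 xylem and secondary wall genes, 3 were higher and 2 lower, shares near those over all genes (10.4% and 10%). VND7 and MYB83, switches of vessel and fibre walls, gained 0.65 and 0.66, IRX9, a xylan synthesis gene, gained 0.55, and XND1 and ACL5 fell by 0.72 and 0.58. Without EST + BAP replicate 2 the count was 0 higher and 1 lower, without DMSO replicate 2 or 3 it was 3 and 1, and without EST + BAP replicate 1 or 3 it was 4 and 1. Against BAP alone, 11 of the 25 were higher and 2 lower, beside 11.6% and 11.8% of all genes. Monolignol genes, which supply lignin, were higher in 4 of 14 and lower in 1 against DMSO, beside 10.4% and 10% of all genes. PAL4, CCOAOMT1 and CAD5 gained 1.14, 0.85 and 0.73, and F5H fell by 1.14.

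Suberin genes, which build the waxy wall polymer of endodermis and periderm, were higher in 11 of 13 members, with a median of 1.19, and the count was 11 in each set with a library left out. FAR5 (chromosome 3, 16137576 to 16142270, + strand), a fatty acyl reductase, had 171, 184 and 188 CPM in EST + BAP, against 49.3, 54.4 and 61 CPM in DMSO. The groups did not come near each other (log2 fold change 1.71, SE 0.10, adjusted p = 4.02e-06), with 152, 104 and 132 CPM in BAP and 56.1, 57.8 and 59.5 CPM in EST. CYP86A1, a fatty acid hydroxylase, had 229, 252 and 254 CPM in EST + BAP and 86.2, 78.6 and 122 CPM in DMSO (log2 fold change 1.35). ASFT, KCS2, GPAT5 and ABCG20 gained 1.39, 1.21, 1.20 and 1.19. Of 10 endodermis markers, 2 were higher (MYB36, 0.92, and SGN3, 0.83), 1 was lower (SCR, fall of 0.68, lost without DMSO replicate 2) and 7 were not called, with a median of 0.18, beside shares of 10.4% higher and 10% lower over all genes. Their summed level was 57.4 to 73.0 CPM in EST + BAP and 41.2 to 48.9 CPM in DMSO. CASP1 to CASP5, which define the Casparian strip, stayed at or under 6.57 CPM in these 6 libraries. The part of the cell make-up in the suberin result was not tested.

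Markers of other tissues were checked in the same way, beside shares of 10.4% higher and 10% lower over all genes. Root hair and epidermis markers summed to 12.8 to 29.7 CPM in EST + BAP and 12.2 to 17.2 CPM in DMSO, with 1 of 9 higher (PRP3, 1.73) and 2 lower (GL2 and RHD6, falls of 0.91 and 0.92). Without DMSO replicate 2 that count was 1 and 0, without EST + BAP replicate 2 it was 1 and 1, and without EST + BAP replicate 3 it was 3 and 1. Root tip and lateral root markers summed to 11.3 to 12 CPM in EST + BAP and 9.2 to 10.9 CPM in DMSO, with 1 of 6 higher (LRP1, 0.55) and 1 lower (TMO7, fall of 1.11). The call of TMO7 was lost without DMSO replicate 2 and when all 4 groups of 24 h were fitted together. WOX5, of the root stem cell niche, was too low to be tested.

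Genes of the photosynthetic antenna and Rubisco, which roots can also express when they green, were lower in 11 of 16 members, with a median of −0.63. LHCB1.3, an antenna protein of photosystem II, had 134, 128 and 149 CPM in EST + BAP, against 302, 255 and 313 CPM in DMSO. Each EST + BAP library was lower (log2 fold change −1.08), though reads can be shared with its near-identical copies AT1G29910 and AT1G29920. LHCB1.5, LHCA1 and RBCS1A, for the small subunit of Rubisco, fell by 0.84, 0.81 and 0.75. The summed level was 952 to 1060 CPM in EST + BAP and 1540 to 1720 CPM in DMSO. The median was −1.21 for BAP alone and 0.23 for EST alone, with 9 genes higher in EST + BAP than in BAP and 16 lower than in EST. Over all genes these shares were 11.6% and 13.8%. Of 8 greening regulators and chlorophyll synthesis genes, 3 were lower, among them GLK2, a transcription factor of chloroplast development (fall of 1.32), and CHLH, a magnesium chelatase subunit (fall of 0.65). Without EST + BAP replicate 1 that count was 2, with 1 higher.

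**Figure D4:**
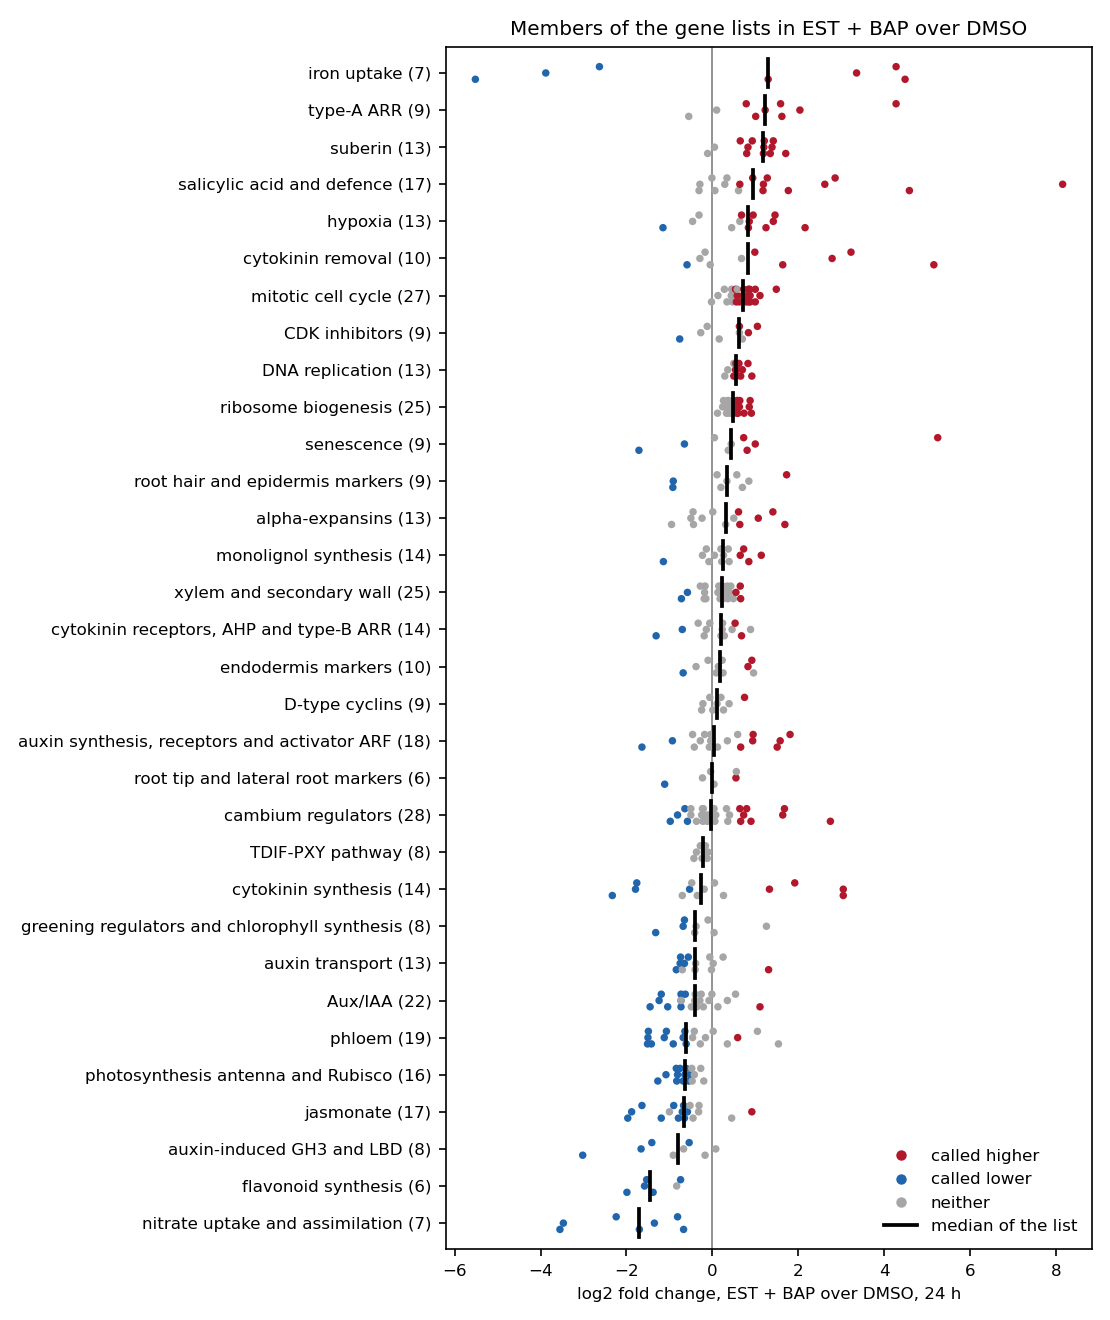
Log2 fold change of EST + BAP against DMSO at 24 h for the tested members of the gene lists, with 1 point per gene (red called higher, blue called lower, grey neither), the number of genes after each name and a bar at the median. Suberin (median 1.19) and type-A ARR genes (1.23) lie to the right of 0, and nitrate (−1.70), flavonoid (−1.45) and phloem genes (−0.61) to the left.

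Nitrate uptake and assimilation genes were lower in all 7 members tested, with a median of −1.70, beside −2.21 for BAP alone and −0.77 for EST alone. NRT1.1 (chromosome 1, 4105223 to 4109601, + strand), a nitrate transporter and sensor, had 15.2, 17.3 and 22.3 CPM in EST + BAP, against 198, 221 and 218 CPM in DMSO. No library came near the other group (log2 fold change −3.55, SE 0.14, adjusted p = 8.28e-07), with −3.03 for BAP alone and −0.38 for EST alone. NRT2.1, the main high-affinity transporter, had 8.02, 9.23 and 11.3 CPM in EST + BAP and 90.6, 108 and 114 CPM in DMSO (log2 fold change −3.47, SE 0.14, adjusted p = 8.28e-07). NRT3.1, its partner, and NIR1, nitrite reductase, fell by 1.70 and 2.24.

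The 7 iron uptake genes all changed, 3 down and 4 up. IRT1 (chromosome 4, 10707344 to 10709015, + strand), the main iron importer of roots, had 0.224, 0.377 and 0.745 CPM in EST + BAP and 24.3, 15.5 and 21.1 CPM in DMSO. BAP libraries had 0.541, 0.543 and 0.594 CPM and EST libraries 31.7, 33.2 and 74.3 CPM, so that EST + BAP lay at the level of BAP. The log2 fold change against DMSO was −5.52 (SE 0.29, adjusted p = 2.17e-06). FRO2, the iron reductase, had 1.27, 1.03 and 0.951 CPM in EST + BAP and 19.1, 13.1 and 16.4 CPM in DMSO (log2 fold change −3.88, SE 0.18, adjusted p = 1.24e-06). FIT, the transcription factor that drives both, fell by 2.63. The 4 bHLH genes whose products pair with FIT went up. bHLH38 had 8.43, 7.16 and 6.49 CPM in EST + BAP, against 0.787, 0.201 and 0.308 CPM in DMSO, all EST + BAP libraries being above DMSO (log2 fold change 4.49, SE 0.30, adjusted p = 8.05e-06). bHLH39, bHLH100 and bHLH101 gained 1.3, 4.28 and 3.36.

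Salicylic acid and defence genes were higher in 10 of 17 members, with a median of 0.94, beside −0.45 for BAP alone and 0.71 for EST alone. PBS3 (chromosome 5, 4267456 to 4271064, + strand), which makes a precursor of salicylic acid, had 8.58, 9.05 and 8.89 CPM in EST + BAP, against 0.262, 0.369 and 0.385 CPM in DMSO. EST libraries spanned the same level, with 5.93, 7.87 and 12 CPM, and BAP libraries were near DMSO, with 0.64, 0.31 and 0.685 CPM. The log2 fold change was 4.59 against DMSO (SE 0.18, adjusted p = 7.39e-07) and 0.05 against EST (SE 0.21, adjusted p = 0.854). SARD1, a transcription factor of salicylic acid synthesis, had 28.5, 23.2 and 24.3 CPM in EST + BAP and 5.9, 3.12 and 2.81 CPM in DMSO (log2 fold change 2.86, SE 0.20, adjusted p = 1.07e-05). CBP60G, its relative, and ICS1, the synthesis enzyme, gained 1.77 and 1.18. PR1, a common marker of the response, was at most 0.124 CPM and was not tested.

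Jasmonate genes were lower in 10 of 17 members and higher in 1, with a median of −0.67, but lower in 6 without EST + BAP replicate 2 and in 5 when all 4 groups of 24 h were fitted together. JAZ2, a repressor of the pathway that is itself induced by it, had 34.7, 28.0 and 27.1 CPM in EST + BAP, against 111, 74.6 and 95.4 CPM in DMSO. The EST + BAP libraries were all lower (log2 fold change −1.64, SE 0.15, adjusted p = 4.74e-05). JAZ9 and JAZ6 fell by 1.97 and 1.88 and LOX3, of jasmonate synthesis, by 1.19. VSP2, a storage protein gene, gained 0.92.

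Hypoxia response genes were higher in 8 of 13 members and lower in 1, with a median of 0.84. Lower genes numbered 2 without DMSO replicate 3, EST + BAP replicate 2 or EST + BAP replicate 3. HB1, a haemoglobin, had 28.7, 26.2 and 28.5 CPM in EST + BAP, against 4.85, 5.13 and 8.01 CPM in DMSO, with BAP libraries at 18.8, 13 and 13 CPM and EST libraries at 12.7, 13.3 and 20.6 CPM. Every EST + BAP library was above the rest (log2 fold change 2.16 against DMSO, SE 0.16, adjusted p = 1.45e-05). LBD41 and PCO1 gained 0.84 and 0.86, and SUS4, a sucrose synthase, fell by 1.15. Senescence genes were higher in 4 of 9 and lower in 2. SWEET15 (chromosome 5, 4181042 to 4183354, − strand), a sugar transporter also known as SAG29, had 14.8, 17.8 and 10.9 CPM in EST + BAP, against 0.262, 0.336 and 0.462 CPM in DMSO. Its log2 fold change was 5.25 (SE 0.28, adjusted p = 2.61e-06, edgeR), with 5.1 for EST alone and 1.71 for BAP alone. NAC029 of the same list went the other way. On the CPM scale of all libraries it had 2.31, 2.33 and 1.84 CPM in EST + BAP and 6.62, 8.21 and 6.36 CPM in DMSO. Of 6 flavonoid synthesis genes, 5 were lower, with a median of −1.45. CHS, the entry enzyme, had 160, 194 and 221 CPM in EST + BAP and 371, 512 and 611 CPM in DMSO (log2 fold change −1.38, SE 0.18, adjusted p = 0.000454), and CHI, F3PH and FLS1 fell by 1.53, 1.58 and 1.99.

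The largest rises against DMSO were in genes close to 0 without treatment. AT4G22050 (chromosome 4, 11683815 to 11685644, + strand), annotated as an aspartyl protease, had 3.25, 4.00 and 2.69 CPM in EST + BAP, with 343 counts in all, against 0 in each DMSO library. It was at least 73.4-fold higher, taking 3 counts over the 3 DMSO libraries as the floor, and EST libraries had 0.662, 0.564 and 0.576 CPM. HSD1, a hydroxysteroid dehydrogenase, had 153 counts in EST + BAP and 0 in DMSO (at least 32.7-fold higher), but reads can be shared with its copy AT5G50600, and the pair summed to 3.69, 2.76 and 2.69 CPM in EST + BAP and 0, 0.168 and 0.154 CPM in DMSO. PR2, a glucanase of the defence response, had 5.19, 5.74 and 6.62 CPM in EST + BAP and 573 counts, against 1 count in DMSO (ratio 368, 95% counting interval 65.8 to 14600). LON3, annotated as a Lon protease, had 3.96, 6.01 and 4.01 CPM in EST + BAP and 490 counts, against 1 count in DMSO (ratio 315, 95% counting interval 56.2 to 12500). Intervals and floors cover counting error only.

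AT3G05770, an uncharacterised gene, had 39.4, 66 and 49.7 CPM in EST + BAP, against 0.131, 0.403 and 0.27 CPM in DMSO. Replicate 2 was the highest EST + BAP library, as it was for LON3 (log2 fold change 7.35, SE 0.31, adjusted p = 8.94e-07, edgeR). AT3G05770 (chromosome 3, 1710013 to 1712225, − strand) and LON3 (1714941 to 1719608, − strand) lie 2715 bases apart on the same strand. AT3G05775, which lies between them, had 0.149, 0.335 and 0.165 CPM in EST + BAP and 0 in each DMSO library, and was too low to be tested. Beyond the pair, AT3G05760 and TRM6 were not called and AIF1 fell by 1.14. These neighbours were looked up after the values of the pair were seen.

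The largest falls were led by AT1G29540 and AT5G66595, with 0 counts in EST + BAP and 94 and 75 counts in DMSO (at least 48.8-fold and 38.9-fold lower). AT1G29540 overlaps AT1G29535, and the pair summed to 3.62, 3.87 and 3.39 CPM in EST + BAP and 5.51, 5.81 and 8.7 CPM in DMSO, so that the bound for AT1G29540 rests on how reads were divided between them. GSTF14, a glutathione transferase (chromosome 1, 18458526 to 18459969, + strand), had 1.94, 2.43 and 2.81 CPM in EST + BAP, against 151, 140 and 191 CPM in DMSO. The groups were more than an order of magnitude apart (log2 fold change −6.07, SE 0.17, adjusted p = 3.47e-07), with −6.31 for BAP alone and −1.06 for EST alone. UMAMIT36, of an amino acid exporter family, had 1.12, 0.503 and 0.91 CPM in EST + BAP and 28.9, 36.5 and 42.5 CPM in DMSO (log2 fold change −5.53, SE 0.24, adjusted p = 9.3e-07), and IRT1 came next.

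Direct comparison with BAP alone showed what EST added in the presence of cytokinin. No plants without the transgene were given EST, so effects of estradiol itself and of axr3-1 cannot be told apart. PR2 was at least 132-fold higher in EST + BAP than in BAP, where no library had a count. GA2OX7, which inactivates gibberellin, had 4.85, 4.27 and 4.26 CPM in EST + BAP and 0 in each BAP library (at least 100-fold higher), with 0.393, 0.235 and 0.347 CPM in DMSO. EST libraries were the highest for GA2OX7, with 8.44, 9.81 and 13.9 CPM. AT2G07741, a mitochondrial ATPase subunit gene, also headed the list, but reads can be shared with its copy AT2G07699. In the other direction, AT3G16070, annotated as helicase-like, had 0.821, 0.482 and 0.62 CPM in EST + BAP, against 12.9, 12.1 and 14.9 CPM in BAP. DMSO libraries were close to BAP, with 11.3, 9.97 and 11.1 CPM, and the log2 fold change against BAP was −4.42 (SE 0.19, adjusted p = 7.85e-06). AT2G30362, a noncoding RNA that shares sequence with AT2G30360, and the mitochondrial ATMG00290 were the others.

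Direct comparison with EST alone set plants given both compounds against plants given EST only. ANT, whose promoter drives the inducer, differed in level between these groups, as given above. AXR3 was higher in EST + BAP than in EST (log2 fold change 0.82, SE 0.09, adjusted p = 0.000108, edgeR). An effect of BAP and a different dose of axr3-1 therefore cannot be told apart. AT3G22125 had 32.2, 26.1 and 31.9 CPM in EST + BAP, against 0.397, 0.47 and 0.608 CPM in EST (log2 fold change 5.94, SE 0.16, adjusted p = 5.25e-07). AT2G30766, also uncharacterised, had 10.5, 12.6 and 8.44 CPM in EST + BAP and 0, 0.345 and 0.096 CPM in EST (log2 fold change 6.21, SE 0.46, adjusted p = 1.47e-05). Both had BAP libraries at the EST + BAP level, with 21.1, 36.5 and 37.1 CPM for AT3G22125 and 11.8, 14.7 and 9.91 CPM for AT2G30766. HSD1 was at least 52.1-fold higher than in EST by its own counts, but with its copy AT5G50600 the sum was 3.69, 2.76 and 2.69 CPM in EST + BAP and 0.767, 0.439 and 0.928 CPM in EST. IRT1 was lower (log2 fold change −6.74, SE 0.49, adjusted p = 1.45e-05), and AT5G66595 was at least 51.8-fold lower. AT3G52070 was at least 19.9-fold lower by its own counts, but summed with the overlapping AT3G52072 it had 7.99, 7.37 and 8.27 CPM in EST + BAP and 12.9, 7.3 and 8.74 CPM in EST, and these ranges overlapped.

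Whether the combined effect equalled the sum of the single effects on the log2 scale was tested with an interaction term in one fit of the 4 groups of 24 h. The dose of axr3-1 may differ between EST and EST + BAP plants, and the term does not separate this from other effects. At an adjusted p of at most 0.05 and no size cutoff, 213 of 21734 genes had a positive term (0.98%), meaning EST + BAP was above the sum, and 92 a negative one (0.423%). GSTF2, a glutathione transferase, had 549, 840 and 959 CPM in EST + BAP, 46.0, 40.7 and 41.3 CPM in BAP, 368, 486 and 637 CPM in EST and 96.1, 130 and 124 CPM in DMSO. BAP libraries lay below DMSO, whereas EST + BAP libraries did not lie below EST, and its term was 2.11 (SE 0.30, adjusted p = 0.00832). Among genes whose EST + BAP and DMSO libraries did not overlap, with an average of at least 10 counts in the higher group, MEE47, of unknown function (2.23), and AT4G11310, a papain-type protease (2.2), had the largest positive terms. AT2G07741, which shares reads with its copy AT2G07699, falls outside that rule and had a fitted term of 11.78 (adjusted p = 0.0261), with 143, 55.3 and 137 CPM in EST + BAP, 0.246, 0 and 0 CPM in BAP, 0, 102 and 90.4 CPM in EST and 219, 131 and 126 CPM in DMSO. Among the lists, 4 of 13 alpha-expansins, 4 of 13 DNA replication genes and 3 of 28 cambium regulators had positive terms, beside 0.98% of all genes. The expansins were EXPA15 at 1.91 (adjusted p = 0.00654), EXPA6 at 1.16, EXPA4 at 1.1 and EXPA1 at 0.73. MCM3, of the replicative helicase, had a term of 0.80. The cambium regulators were HCA2 at 1.54, PEAR1 at 1.37 and ANT at 1.27 (adjusted p = 0.0176). Positive terms also stood in 2 of 25 xylem genes (XCP1 and LAC11) and 2 of 19 phloem genes (OPS and CLE45). They stood in 1 of 7 nitrate genes (NIR1) and 1 of 9 senescence genes (ASN1). AXR3 had a negative term of −0.70 (adjusted p = 0.0167, edgeR), as had AUR1, a mitotic kinase (−0.83), the CDK inhibitor KRP1 (−0.73) and NOP10, of ribosome biogenesis (−0.63). In their lists, AUR1 was 1 of 27 tested, KRP1 1 of 9 and NOP10 1 of 25, beside 0.423% of all genes. AT1G21520 (−3.01), AT1G05450, a lipid transfer protein gene (−2.68), and LOL1 (−2.49) were the lowest, and AT3G05770 had −2.26.

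The count of interaction terms was sensitive to single libraries: with each of the 12 left out, 79 to 171 genes were positive and 17 to 73 negative. It was 85 and 17 without BAP replicate 3, 79 and 20 without EST + BAP replicate 3, 130 and 32 without EST + BAP replicate 1, 116 and 32 without EST + BAP replicate 2, 113 and 52 without EST replicate 2 and 130 and 35 without EST replicate 3. The positive count was 125 without DMSO replicate 3, and the negative count was 38 without BAP replicate 2, 56 without DMSO replicate 1 and 33 without DMSO replicate 2.

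The EST + BAP effect at 24 h was set against that at 4 h, where other plants were treated and set against their own DMSO libraries, in one fit of the 12 libraries. The times were separate experiments, so time and experiment cannot be told apart. The log2 effect was more positive at 24 h in 532 of 21999 genes (2.42%) and more negative in 465 (2.11%), by adjusted p alone. In CPM on the scale of all libraries, PBS3 had 1.08, 0.538 and 0.336 CPM in EST + BAP at 4 h, against 0.89, 1.43 and 0.938 CPM in DMSO at 4 h, and the term was 5.40 (SE 0.50, adjusted p = 0.000188). SWEET15 at 4 h had 1.32, 1.33 and 0.924 CPM in EST + BAP and 0.772, 0.612 and 0.528 CPM in DMSO (term 4.38, SE 0.40, adjusted p = 0.000188). bHLH38 at 4 h had 0.24, 0.282 and 0.364 CPM in EST + BAP, within the DMSO range of 0.265 to 0.445 CPM for 2 of its 3 libraries (term 4.67, SE 0.51, adjusted p = 0.000512). Thus the gains of these genes at 24 h stood against small or no differences at 4 h.

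Genes more negative at 24 h were led by AT1G73120 and RLP3, a receptor-like protein gene (terms of −5.84 for AT1G73120 and −5.83 for RLP3), and by AT1G29540, whose counts are uncertain as given above. IRT1 had 4.15, 3.64 and 2.72 CPM in EST + BAP at 4 h, against 9.85, 2.76 and 3.2 CPM in DMSO at 4 h. These ranges overlapped, and the term was −4.93 (SE 0.71, adjusted p = 0.00283). SEOR1 at 4 h had 83.7, 86.4 and 99.0 CPM in EST + BAP and 71.2, 89.9 and 94.7 CPM in DMSO (term −1.54, SE 0.19, adjusted p = 0.00107), and JAZ9 had 117, 61.6 and 142 CPM in EST + BAP and 98.5, 64.0 and 111 CPM in DMSO (term −2.18). HSD1, PR2 and AT1G21525 headed the positive side, with a term of 8.21 for AT1G21525 (SE 0.89, adjusted p = 0.000458).

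For NRT1.1 and ARR5 the groups did not overlap at either time. NRT1.1 had 38.4, 63.1 and 46.6 CPM in EST + BAP at 4 h, against 253, 214 and 192 CPM in DMSO, and ARR5 had 275, 320 and 271 CPM in EST + BAP and 109, 37.2 and 62.8 CPM in DMSO. The median log2 fold changes at 4 h and 24 h were 1.53 and 1.23 for type-A ARR genes and −1.34 and −1.70 for nitrate genes. They were 0.16 and 0.71 for mitotic genes, of which 5 of 27 had a positive term. For salicylic acid and defence genes they were −0.22 and 0.94, and 10 of 18 had a positive term. For jasmonate genes they were 0.29 and −0.67, and 5 of 18 had a negative term. Over all genes, 2.42% had a positive term and 2.11% a negative one. The number of terms more positive at 24 h was 310 to 632 and that of more negative ones 223 to 581 with each library left out. It was 322 and 242 without DMSO 24 h replicate 3 and 310 and 223 without EST + BAP 24 h replicate 2, and the negative count was 293 without DMSO 4 h replicate 2, 283 without EST + BAP 24 h replicate 3 and 294 without EST + BAP 4 h replicate 3.

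**Figure D5:**
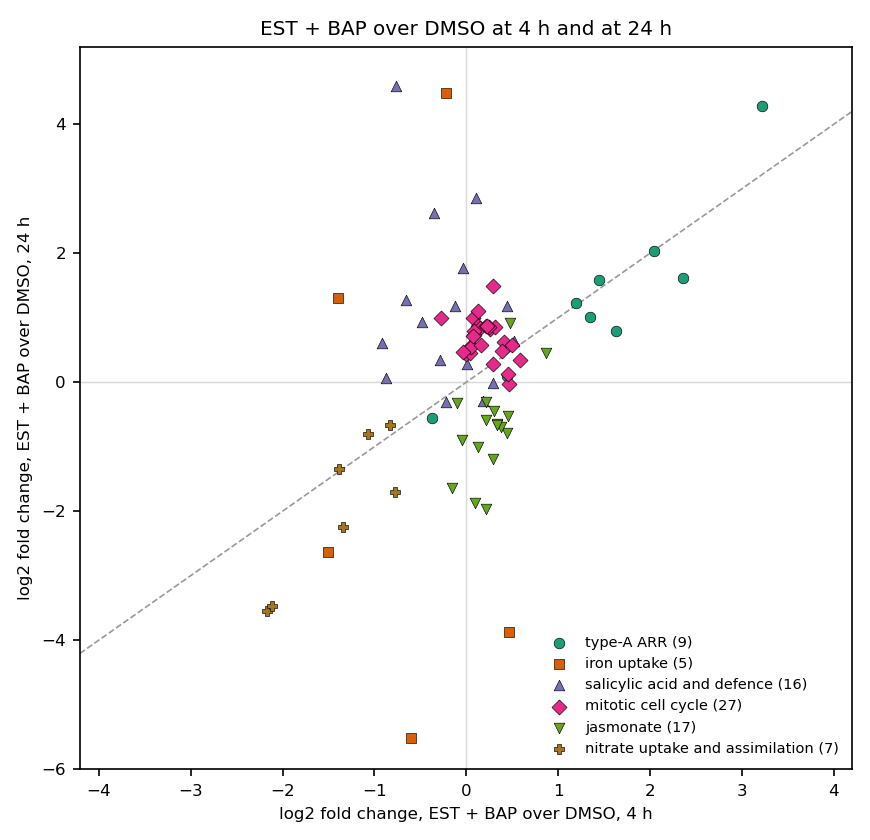
Log2 fold change of EST + BAP against the DMSO libraries of the same time, at 4 h (x axis) and 24 h (y axis), for members of 6 gene lists tested at both times, with 1 point per gene and a dashed line of equal values. Mitotic genes (27 points) lie mostly above the line, with medians of 0.16 at 4 h and 0.71 at 24 h, and jasmonate genes (17 points) mostly below it, with 0.29 at 4 h and −0.67 at 24 h.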

How the data were processed

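RNA from root segments was sequenced on a NextSeq 500 after rRNA depletion with stranded libraries. Per the labels and the study's methods, the authors trimmed reads with Trimmomatic 0.36, checked them with FastQC and quantified them with Kallisto 0.43.0 on the AtRTD2 transcripts. The deposited values are estimated counts summed per gene, given as whole numbers and not normalized, so that reads of near-identical or overlapping genes may be split between them; the strand setting was not given in the sources used here. The table held 34212 genes, of which 33425 matched the TAIR10.1 annotation used for coordinates, names and promoters.

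Counts were analysed with edgeR 4.0.16 in R 4.3.3 (TMM scaling, filterByExpr with a minimum count of 10, quasi-likelihood test, Benjamini-Hochberg adjustment), with the 2 groups compared in each fit, following the study's cutoffs of 0.5 on the log2 scale and 0.05 on the adjusted p. Interaction terms were tested in one fit of 4 groups, and time terms in one fit of both times, by adjusted p alone. CPM are counts scaled to 1000000 per TMM-scaled library. Near-identical genes were found with blastn 2.17.0 and overlapping ones with bedtools 2.31.1.

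The tests against DMSO, of the time term and of the interaction term were tried on simulated data. Alternatives were DESeq2 1.42.0, its size factors in edgeR, no filter, a cutoff of 0.05 on the log2 scale, the replicate number as a block, thinning all libraries to the lowest nuclear total, omission of organelle and ribosomal genes, one fit of the 4 groups, and each library left out. The authors' own comparisons were not used.

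The members and the 32 gene lists (482 loci) were chosen with earlier results of these data known. The genes named were drawn from AXR3, the 5 strongest rises and 5 strongest falls among genes called against DMSO (groups not overlapping, higher group averaging at least 10 counts), the 4 members of each list with the smallest adjusted p and those named in the study's text, and the 3 genes at each end of every other test. Not every gene of these sets is described above. Any other gene was named after its values were seen. Motifs were counted from 250 bases before to 50 after the annotated start.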

Additional observations from a re-analysis of the deposited data

Results flagged for a closer look

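The EST + BAP effect differed between the times in a test of the difference itself. In the fit of both times, 532 genes had a more positive log2 effect at 24 h than at 4 h and 465 a more negative one (edgeR, adjusted p at most 0.05). PBS3, SWEET15 and bHLH38 were more positive at 24 h, and IRT1, SEOR1 and JAZ9 more negative, with the values given above. The 4-h and 24-h plants were separate sets, each with its own DMSO libraries, so time and experiment cannot be told apart.

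The log2 effect of EST differed between plants with and without BAP in 305 genes by the interaction term, positive in 213 and negative in 92 (edgeR, adjusted p at most 0.05). EXPA15 and GSTF2 were positive, and AT1G21520 and AXR3 negative.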

How the results depend on the processing

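Of the genes drawn by the naming rules above, 174 were tested against DMSO. No call among them changed direction under any alternative run, and at most 6 were lost under one of them (of 160 genes tested with thinned libraries). With a log2 cutoff of 0.05 the calls were 3378 higher and 3205 lower against DMSO, 4317 and 4467 against BAP, and 5441 and 5293 against EST. Without each library in turn they were 1870 to 2246 higher and 1848 to 2195 lower against DMSO, 2249 to 2577 and 2193 to 2559 against BAP, and 3307 to 3494 and 2750 to 3027 against EST. DESeq2 called 2074 higher and 2051 lower against DMSO. Time terms numbered 839 negative by DESeq2, and 328 positive and 298 negative with thinned libraries. With each library left out, 310 to 632 were positive and 223 to 581 negative. Interaction terms numbered 556 positive and 346 negative by DESeq2, and 134 and 40 with thinned libraries. With each library left out, 79 to 171 were positive and 17 to 73 negative. The cause of these shifts was not tested, apart from the fewer libraries or reads in the sets left out or thinned. The replicate numbers were not taken to pair the samples, since the labels and methods do not tie a number to a repeat. Same-numbered EST + BAP and DMSO libraries had correlations of 0.114, 0.077 and 0.098, and EST + BAP and BAP libraries 0.256, 0.07 and 0.109. In both sets each EST + BAP library correlated best with its own number. Against EST libraries the values were 0.096, 0.036 and −0.002, and replicate 3 correlated better with another number. Such a hint comes from the data and not from the design. With the replicate number as a block, 2244 genes were higher and 2208 lower against DMSO (2142 and 2059 shared with the fit without it), 355 interaction terms were positive and 157 negative, and no call of a named gene against DMSO changed. Depth limited DMSO replicate 1 most, with 6001669 nuclear counts, and genes under about 10 counts were not tested.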
